A study of Mus musculus with 2 samples.

Results

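Ctcf and 7 genes of proteins that bind DNA or chromatin with CTCF were described by the CTCF binding at their own loci in mouse fetal liver. The 8 genes are Ctcf, Yy1, Maz, Patz1, Zfp143, Ldb1, Chd8 and Top2b, of 21938 protein-coding genes in GENCODE annotation vM21. For each gene, every CTCF peak was taken whose summit lay in the gene or within 20 kb on either side. This window held 35 of the 50888 peaks of the optimal list on placed chromosomes. That deposited list holds peaks that passed a threshold on the irreproducible discovery rate (IDR), a measure of how well peaks recur between replicates. A listed peak need not be found in each replicate, since 30 of the 35 had a summit within 100 bp in both replicates' own lists.

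The data are chromatin immunoprecipitation with sequencing (ChIP-seq) with an antibody to CTCF, made from livers of mouse embryos of strain B6NCrl, aged 14.5 days. There is 1 group of 2 libraries, numbered as biological replicates 1 and 2, made from 1 biosample in which pulverized livers of both sexes and several dissections were pooled. The spread between them therefore covers library making and sequencing and not animals, and with 1 group no condition could be compared. The labels give no treatment and no genotype beyond the strain, and peak lists hold no marker expression by which the tissue could be checked.

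CTCF reads DNA through a row of zinc fingers, occupies insulators and gene starts, and stops the cohesin ring that extrudes chromatin loops. Loop anchors usually carry CTCF motifs that point toward each other. The fetal liver makes most of the embryo's red cells at this stage, and several of the partner proteins, LDB1 foremost, are known for joining enhancers to promoters in that lineage.

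Each optimal peak carries the authors' own signal on a scale that is not stated, which was used only to order peaks within that list. Its median over all optimal peaks was 67.96. The replicate values below are relative signals. For these, the nearest peak in a replicate's own list, with its summit no more than 100 bp away, was scaled to the median of the 50909 strongest peaks in that list, so that 1 is a typical strong peak. Read numbers are unknown. Since the tissue is a mix of cells, fewer cells with binding and lower occupancy in each cell cannot be told apart. All positions are on build mm10, and peaks are numbered along each gene in the direction of transcription.

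The best CTCF sites of the 8 loci are shown first, since the strongest peak of 6 of the 8 genes had a match to the core CTCF motif, beside 83.4% of protein-coding genes with as many window peaks (3 to 5). A match is 14 bases wholly within 50 bp of the summit that fit the core motif on either strand with at most 2 mismatches. The sites are read 5′ to 3′ on the strand of the motif, with its 14 bases in capitals. For Chd8 and Top2b, whose strongest peaks had no match, the best matched site of the window is shown.
Ctcf peak 1, chr8:105622558-105622587, plus strand: agctgtcgCCACCAGGGGGCAGcagaactg
Yy1 peak 3, chr12:108811352-108811381, plus strand: tgatctgaCCTCTAGGTGGTGCagtagcac
Maz peak 4, chr7:127017056-127017085, plus strand: caccgtccCCAGGAGGGGGCGCtcaaaccc
Patz1 peak 3, chr11:3314228-3314257, minus strand: agagtgagCCACTAGGGGGCAGtcagggac
Zfp143 peak 4, chr7:110083958-110083987, minus strand: aaaagccaCCACTAGATGGCACcaaacagt
Ldb1 peak 5, chr19:46014763-46014792, minus strand: agagatgcCCACCAGGAGGCGCcagtgcct
Chd8 peak 4, chr14:52190875-52190904, plus strand: catgaaggCCAGAAGAGGGCACtggagagc
Top2b peak 4, chr14:16447714-16447743, minus strand: tccgcagaCCACTAGGTGACAGcaaggttg
The sites of Maz, Ldb1, Chd8 and Top2b had 1 mismatch, and that of Yy1 had 2. Among the 35 peaks, 3 had a site without a mismatch, those of Ctcf, Patz1 and Zfp143.

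CTCF bound near all 8 genes, at the start of 6 of them and at distal sites of all 8. A promoter peak is a summit within 1 kb of any annotated transcript start of the gene. Such a peak was present in 6 of the 8 genes (Yy1, Maz, Patz1, Ldb1, Chd8 and Top2b), beside 7727 of 21938 protein-coding genes, or 35.2%. A gene with more annotated starts has more places to be counted. The members had from 2 starts (Yy1) to 16 (Chd8), and the share of all genes was not matched for this. Every window held at least 3 peaks, beside 53.9% of protein-coding genes with as many within 20 kb and 78.7% with 1 or more. The members were chosen with earlier results of these data known, and no test is given. Ctcf itself and Zfp143 had no promoter peak in the optimal list. When the 5′ end of the gene record was the only start, 4 genes kept a promoter peak (Yy1, Maz, Chd8 and Top2b), beside 6067 of 21938 protein-coding genes. The promoter peaks of Patz1 and Ldb1 lay at internal starts, as did the stronger promoter peak of Maz. Maz was kept only through its weaker promoter peak, with a signal of 21.86.

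Of the 35 window peaks, 8 were promoter peaks and 27 were not. The members' windows held a median of 4.5 peaks, beside 3 over all protein-coding genes. They were also longer, with a median of 70.68 kb beside 57.42 kb. Per length, the median was 54.87 peaks per Mb beside 37.58, from 36.27 at Top2b to 111.3 at Maz, the shortest of the genes. The strongest peak was a promoter peak in 1 of the 8 windows, that of Chd8, beside 13.7% of protein-coding genes with 3 to 5 window peaks. It was above the median signal of all optimal peaks in 8 of 8, beside 92.7% of those genes, so both counts were near the background. At the edge of the rule, the members farthest out were a peak 17.76 kb beyond Ctcf with a signal of 17.52 and one 17.45 kb beyond Maz with 57.04. Just outside lay a peak 21.64 kb beyond Patz1 with a signal of 39.1 and one 21.69 kb beyond Chd8 with 639.8, a higher signal than any of the 35.

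**Figure D1:**
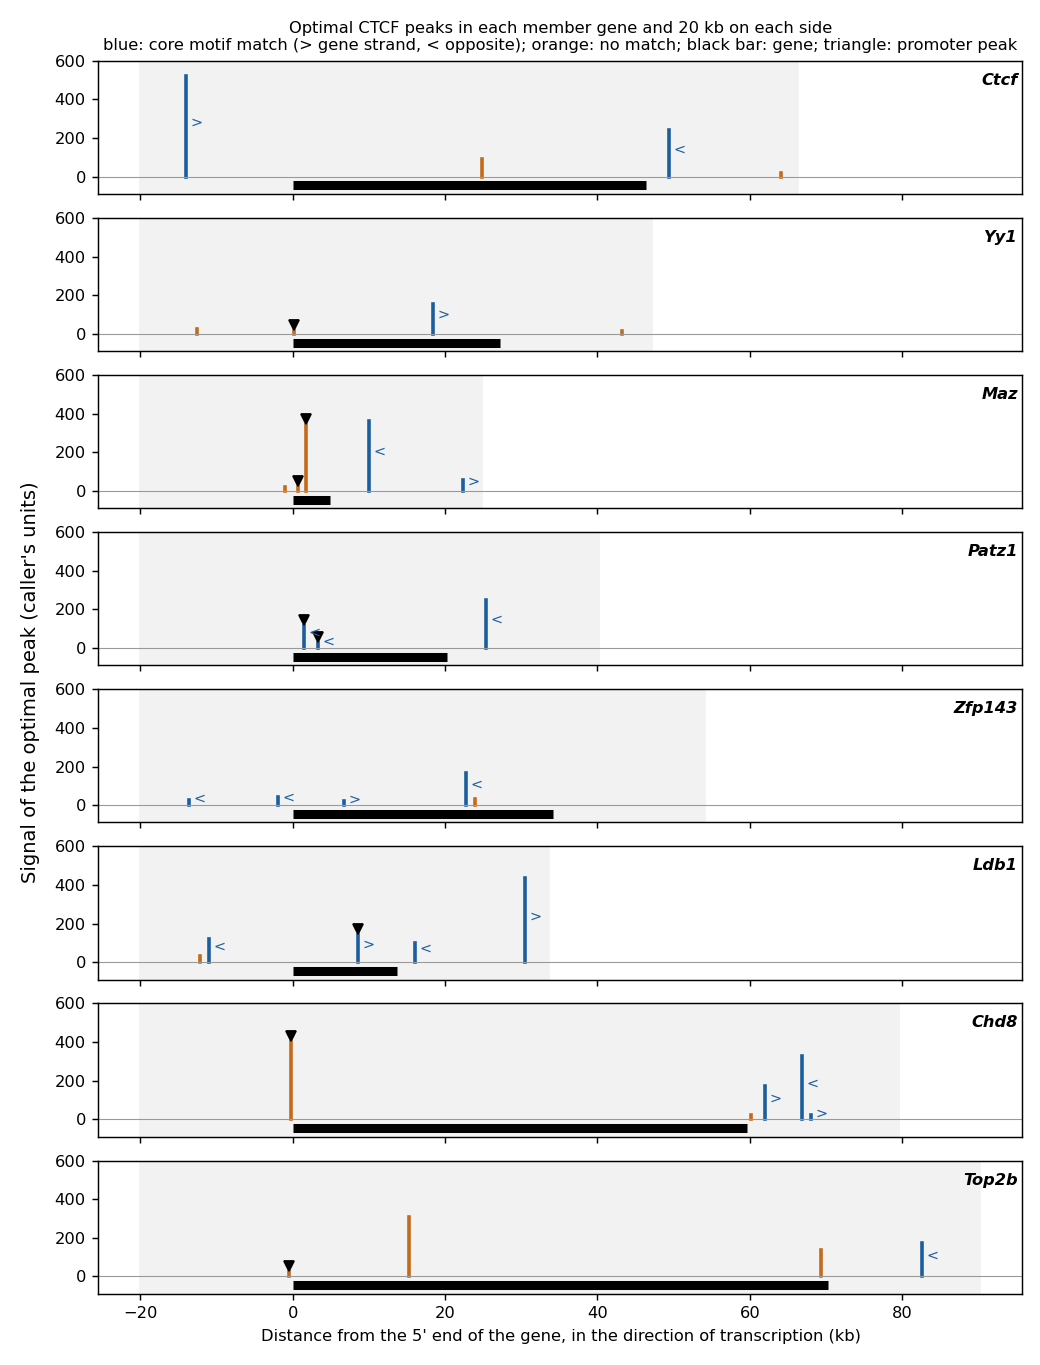
The 8 windows are drawn to scale from the 5′ end of each gene (kb, in the direction of transcription), with a bar at each optimal peak whose height is its signal in the peak caller's units; grey marks the window, black the gene, blue a core motif match with its direction, orange no match, and triangles promoter peaks. The tall bars of Ctcf, Patz1 and Ldb1 lie away from the gene start, while that of Chd8, at 400.1, lies on it.

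Ctcf (ENSMUSG00000005698.15, chr8:105636568-105682922, plus strand) lay between its 2 strongest CTCF peaks, and no optimal peak lay at its own start. The stronger was peak 1, at chr8:105622398-105622736, 13995 bp upstream in an intron of Agrp, the gene of a neuropeptide that drives feeding. Its signal was 522.2, rank 283 of the optimal list, and its relative signal was 9.22 in replicate 1 and 6.505 in replicate 2 (7.86 ± 1.92, SD, n = 2). It was the highest of the 35 in both replicates. The motif middle lay 0.5 bp from the summit, and the motif pointed along the gene.

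The other strong peak, peak 3, was intergenic at chr8:105685792-105686019, beyond the 3′ end of Ctcf and 361 bp from a start of Carmil2, a regulator of actin filaments. Its signal was 242.1, with relative signals of 4.48 and 2.85 in replicates 1 and 2 (3.66 ± 1.15, SD, n = 2). Its motif had 2 mismatches and pointed back toward the gene. Peaks 1 and 3 were therefore a convergent pair 63.34 kb apart that enclosed the whole gene.

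The remaining Ctcf peaks were weaker and without a match. Peak 2, in an intron 24.81 kb into the gene and 592 bp from the predicted gene Gm5915, had a signal of 89.77 and relative signals of 0.633 and 2.07. The replicates thus placed it on opposite sides of a typical strong peak. Peak 4, at the starts of Acd, a telomere protein, and Pard6a, a cell polarity protein, had a signal of 17.52 and a peak in replicate 1 alone, at 0.278.

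No peak at the Ctcf start was in the optimal list, but the full lists held one. The deposited pooled list of 300000 peaks held one 303 bp from a start, at rank 38604 with a signal of 31.85. The replicates' full lists held peaks 316 and 265 bp from a start, at ranks 30108 and 61145, with relative signals of 0.757 and 0.198. Whether they are the same peak as the pooled one was not checked. Both relative signals were below 1. The higher of them, in replicate 1, fell within that library's 50909 strongest peaks, and the lower did not. The pooled signal of 31.85 was above that of the promoter peaks of Yy1 (14.55) and Top2b (23.03), which the optimal list did include. It was below those of Patz1, Ldb1, Maz and Chd8. Absence from the optimal list is thus not a measure of lower signal.

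The gene start of Ctcf, in RefSeq's promoter window of 250 bases before to 50 after the start (build GRCm38.p6), held 1 exact match to a YY1 motif and 1 to a MAZ motif. These motifs, of factors encoded by other members, were searched on both strands as AANATGGC for YY1, CTACANNTC for ZNF143 and GGGGAGGG for MAZ. Over 32851 RefSeq promoter windows of this length, 6.05% held the YY1 motif, 4.2% the ZNF143 motif and 10.8% the MAZ motif. The Ctcf sites are shown with the motif in capitals, both on the minus strand. The YY1 motif begins 10 bp after RefSeq's start and the MAZ motif 113 bp before it, and that start lies 30 bp before the 5′ end of the gene in GENCODE.
Ctcf YY1 site, chr8:105636537-105636566: ggctcggacacAAAATGGCggcggcgcggt
Ctcf MAZ site, chr8:105636414-105636443: aggaaaggtgaGGGGAGGGgttggcgcagg
All 8 members were matched in RefSeq's table, with 13 windows in all. The other matches were 2 MAZ motifs at Maz and 1 each at Top2b and at an alternative start of Ldb1. A match describes the letters and not a bound site.

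Yy1 (ENSMUSG00000021264.12, chr12:108792973-108820148, plus strand) encodes a zinc finger protein that binds enhancers and promoters and can hold them together. Its promoter peak, peak 2 in the 5′ UTR, was the weakest of the members' strongest promoter peaks, with a signal of 14.55, and 2.265% of the genes with a promoter peak had a weaker one. Its relative signals were 0.259 and 0.187 (0.223 ± 0.0514, SD, n = 2), and it ranked 64603 and 64451 in the replicates, outside the strongest 50909 of both. The summit lay 102 bp from the start of Yy1 and 332 bp from that of Gm34220.

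The strongest CTCF site of the Yy1 locus was inside the gene. Peak 3, in an intron at chr12:108811278-108811467, 18389 bp from the 5′ end, had a signal of 152.6 and relative signals of 1.66 and 2.79 (2.23 ± 0.798, SD, n = 2). The matched site shown above lay under it, on the strand of the gene. Both flanking peaks were weak and had no match. Peak 1, 12590 bp upstream in intergenic sequence, had a signal of 27.19 and relative signals of 0.390 and 0.276. Peak 4, at the start of the mitochondrial carrier genes Slc25a47 and Slc25a29, had 12.2 and a peak in replicate 2 alone, at 0.234.

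Maz (ENSMUSG00000030678.7, chr7:127022130-127027037, minus strand) encodes a zinc finger protein of G-rich sites that has been reported to act as an insulator factor beside CTCF. It is a compact gene of 4.908 kb and had 2 promoter peaks of very different height. Peak 3, at chr7:127025224-127025477, over coding exon and intron 1681 bp from the 5′ end, had a signal of 343.8 and relative signals of 6.61 and 3.74 (5.17 ± 2.03, SD, n = 2). It counts as a promoter peak through the start of a retained-intron transcript 224 bp away. Of genes with a promoter peak, 89.43% had a weaker one.

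Peak 2, 731 bp from the 5′ end and 146 bp from a protein-coding start, had a signal of 21.86 and relative signals of 0.557 and 0.102. It was thus weak in both replicates, and it was not in the conservative list. Neither peak had a core motif match, with 4 mismatches at best under peak 3 and 3 under peak 2. Peak 3 did hold the motif of MAZ itself, 92.5 bp from the summit on the strand of the gene, shown here because it was the only MAZ motif within 100 bp of any of the 35 summits.
Maz peak 3 MAZ site, chr7:127025249-127025278, minus strand: aggccggtgggGGGGAGGGcaacaaggtgg
Over all optimal peaks the MAZ motif lay within 100 bp of 2.96% of summits, and over the same length at gene 5′ ends in 8.2%.

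Beyond Maz, the strongest peak of the window was peak 4, at the start of Pagr1a, a cofactor of histone methyltransferase complexes, and of its near neighbours Gm42742 and Pagr1b. Its signal was 363.4, with relative signals of 6.90 and 4.05 (5.47 ± 2.02, SD, n = 2). Peak 4 was above peak 3 in each replicate, by less than the replicates differed from each other at either peak. Peak 5, in introns of Mvp and Pagr1b, had a signal of 57.04 with relative signals of 0.958 and 0.833. Peak 1, 14 bp from a start of the kinesin gene Kif22, had 19.8 and a peak in replicate 1 alone, at 0.379.

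Patz1 (ENSMUSG00000020453.17, chr11:3288874-3309083, plus strand) encodes a transcription factor with a BTB domain, AT hooks and zinc fingers, which has been reported beside CTCF at domain boundaries. It had 3 window peaks, all with a match on the strand opposite to the gene. Peak 1, over 5′ UTR and intron 139 bp from a protein-coding start, had a signal of 114.2 and relative signals of 1.90 and 1.49 (1.69 ± 0.292, SD, n = 2). Peak 2, 24 bp from the start of a noncoding transcript, had 26.08 with relative signals of 0.558 and 0.111 and was not in the conservative list.
Both promoter sites had 2 mismatches and are printed to compare with the perfect site of peak 3 above.
Patz1 peak 1, chr11:3290246-3290275, minus strand: cctcccgcCCGCCAGGCGGCGCcggcgcgc
Patz1 peak 2, chr11:3292217-3292246, minus strand: gcctcccgCCCCCAGAGGGGGCcccacgcc
Neither promoter peak lay near the 5′ end of the gene record. They were 1426 bp and 3345 bp from it, at internal starts of a gene with 11 annotated starts in all. Peak 3, at chr11:3314124-3314364 in introns of the predicted genes Gm11944 and Gm12592, had the highest signal, 248.4, with relative signals of 4.10 and 3.37 (3.74 ± 0.522, SD, n = 2). Both replicates placed peak 3 above peak 1 and peak 1 above peak 2.

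Zfp143 (ENSMUSG00000061079.14, chr7:110061217-110095394, plus strand) encodes the mouse counterpart of ZNF143, an activator bound at many housekeeping and small nuclear RNA gene starts. It had 5 window peaks and none at its start. Peak 4, in an intron at chr7:110083889-110084092, had a signal of 166.5 and relative signals of 1.39 and 3.31 (2.35 ± 1.36, SD, n = 2). It combined a perfect core motif with a YY1 motif 59.5 bp from the summit, and it was the only Zfp143 peak above the median signal of all optimal peaks.

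The other Zfp143 peaks were weak. Peak 2, 1933 bp upstream, had a signal of 39.48 with relative signals of 0.138 and 1.00, the largest ratio between the replicates among the peaks with both values. Peaks 1, 3 and 5 had signals of 28.71, 19.2 and 30.25, and none of their relative signals exceeded 0.551 in either replicate. Peak 5 lay 1144 bp from peak 4 and had no match. At the Zfp143 start, the pooled list held a peak at rank 52572 with a signal of 18.2, and the replicates' full lists held peaks near a start at 0.423 and 0.179. The conservative list did include a peak 416 bp from a start. No ZNF143 motif lay within 100 bp of any of the 35 summits, beside 2.32% of all optimal summits and 3.45% of gene 5′ ends.

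Ldb1 (ENSMUSG00000025223.15, chr19:46031570-46045214, minus strand) encodes an adaptor that does not bind DNA itself and joins enhancers and promoters through LIM proteins, as at the globin genes of red cells. CTCF peaks lay on both sides of the gene, with the strongest beyond its 3′ end. Peak 5, intergenic at chr19:46014601-46014909 beyond its 3′ end, had a signal of 434.8 and relative signals of 8.07 and 5.02 (6.55 ± 2.16, SD, n = 2). Only Ctcf peak 1 was higher among the 35 peaks by signal. Peak 2, upstream in an intron of the coactivator gene Pprc1 and 338 bp from one of its starts, had 117.9 with relative signals of 1.03 and 2.32.

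The Ldb1 promoter peak, peak 3, was intronic and 8511 bp from the 5′ end, and counts as a promoter peak through a retained-intron transcript 703 bp away. Its signal was 141.8, with relative signals of 2.36 and 1.90 (2.13 ± 0.329, SD, n = 2). It was above 1 in both replicates and had a match on the strand of the gene. Peak 4, 16054 bp from the 5′ end in intergenic sequence, had a signal of 101.9, with relative signals of 1.53 and 1.62, one of the closest pairs of values among the 30 peaks with both. Peak 1, 182 bp from a start of Pprc1, had 30.72 with relative signals of 0.698 and 0.205. All 5 Ldb1 peaks were in the conservative list.

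Chd8 (ENSMUSG00000053754.14, chr14:52198151-52257780, minus strand) encodes a chromodomain helicase that has been reported to bind CTCF at insulators. It had the strongest promoter peak of the 8 genes. Peak 1, at chr14:52257827-52258123, 217 bp upstream of the 5′ end, had a signal of 400.1, rank 1927 of the optimal list, and relative signals of 7.23 and 4.93 (6.08 ± 1.63, SD, n = 2). Of genes with a promoter peak, 93.45% had a weaker one. The peak had no core motif match, with 3 mismatches at best, and it held a YY1 motif 37.5 bp from the summit. The stretch from 283 to 175 bp upstream is printed on the strand of the gene, with the YY1 motif first and then the best core motif, which lies in the reverse direction, in capitals.
Chd8 upstream stretch, chr14:52257955-52258063, minus strand: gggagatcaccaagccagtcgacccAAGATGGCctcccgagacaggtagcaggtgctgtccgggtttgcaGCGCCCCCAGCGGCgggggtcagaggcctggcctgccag
A YY1 motif lay within 100 bp of 2 of the 35 summits, this one and Zfp143 peak 4, beside 4.12% of all optimal summits and 5.31% of gene 5′ ends.

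The other 4 Chd8 window peaks clustered beyond the 3′ end, in and around Supt16, which encodes a subunit of the histone chaperone FACT. Peak 4, in an intron of Supt16, had a signal of 329.5 and relative signals of 5.90 and 4.10 (5.00 ± 1.28, SD, n = 2). Peak 3, also in an intron, had 173.5 with relative signals of 1.80 and 3.21. These were strong in both libraries, with matches of opposite strand 4.946 kb apart that pointed toward each other. Peak 2, at the starts of Supt16 and Gm26590, had 21.7 and a peak in replicate 1 alone, at 0.344. Peak 5 had 20.66 and a peak in replicate 2 alone, at 0.367, although its site had 1 mismatch.

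Top2b (ENSMUSG00000017485.11, chr14:16365179-16435462, plus strand) encodes topoisomerase II beta, an enzyme that cuts and reseals both strands of DNA and is found with CTCF and cohesin at loop anchors. Its promoter peak was weak. Peak 1, 504 bp upstream in an intron of Gm48163, had a signal of 23.03 and relative signals of 0.356 and 0.268 (0.312 ± 0.0622, SD, n = 2), and 13.94% of genes with a promoter peak had a weaker one. It was in the strongest set of both replicates and in the conservative list all the same.

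Top2b had its strongest binding inside the gene. Peak 2, in an intron at chr14:16380255-16380508, had a signal of 306.4 and relative signals of 3.32 and 5.69 (4.51 ± 1.67, SD, n = 2), at rank 981 of replicate 2. Its best core motif had 3 mismatches, with its middle 0.5 bp from the summit, so it is a strong peak without a match at the cut of 2. Peak 3, in the 3′ UTR of Top2b and an intron of Rarb, had 134.5 with relative signals of 2.14 and 2.04, and also no match. Peak 4, in an intron of Rarb, the gene of a retinoic acid receptor, had 171.4 with relative signals of 3.59 and 1.59 and the only matched site of the window. All 4 Top2b peaks were in the strongest set of both replicates.

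Among the promoter peaks, the 6 genes fell far apart. The strongest promoter signals of the members ran in the order Yy1, Top2b, Patz1, Ldb1, Maz and Chd8, with a median of 128.0 beside 70.19 for all genes with a promoter peak. By relative signal, each replicate gave the same order of the 6 genes. Across the replicates, the ranges of Patz1 (1.49 to 1.90) and Ldb1 (1.90 to 2.36) met at 1.90. Those of Maz (3.74 to 6.61) and Chd8 (4.93 to 7.23) overlapped. Yy1 (0.187 to 0.259) and Top2b (0.268 to 0.356) lay close together below the other 4. Of the 8 promoter peaks, 4 were above the median signal of all optimal peaks, 67.96. The median over promoter peaks of all protein-coding genes was lower, at 54.8. By gene, 4 of the 6 members had a promoter peak above 67.96, beside 3941 of the 7727 protein-coding genes with a promoter peak.

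**Figure D2:**
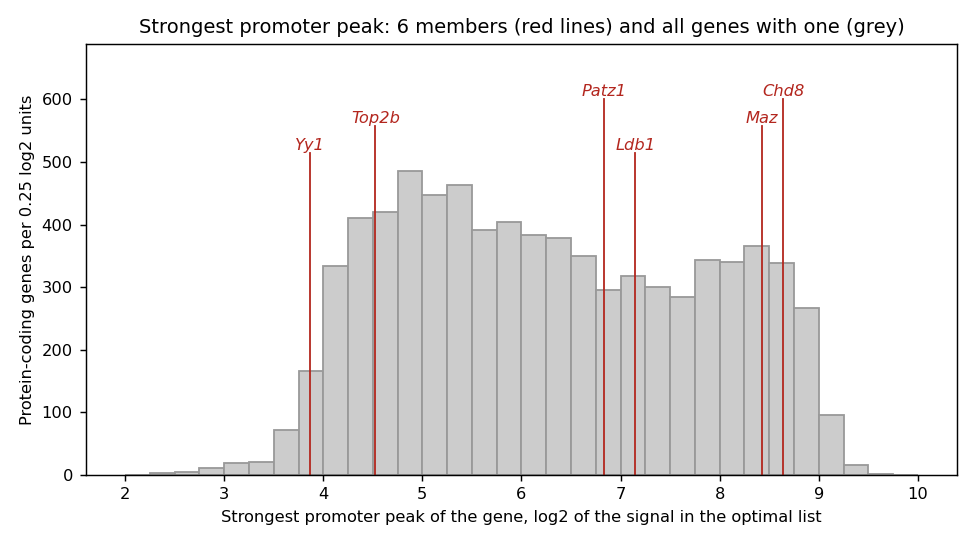
Grey bars count protein-coding genes by the strongest promoter peak of the gene (log2 of its signal in the optimal list, bins of 0.25), and red lines mark the 6 members with one. Yy1, at 14.55, and Top2b, at 23.03, lie low in the distribution, and Maz, at 343.8, and Chd8, at 400.1, lie high.

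Some of the strongest peaks of the members had no core motif match. A match was found in 20 of the 35 window peaks, beside 70.8% of all optimal peaks. It was found in 3 of the 8 promoter peaks (both of Patz1 and that of Ldb1), beside 46.1% of promoter peaks of all protein-coding genes, and in 17 of the other 27. Gene 5′ ends without regard to peaks held a match in 5.7% of windows of the same length. With at most 1 mismatch allowed, 0 of the 8 promoter peaks had a match, beside 20.4% of promoter peaks of all protein-coding genes, and with at most 3, 7 had one, beside 75.8%. No difference between these shares was tested.

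Matched peaks had a median signal of 147.2 and those without a match 27.19, beside 90.04 and 35.6 over all optimal peaks. The ranges overlapped, from 19.2 to 522.2 with a match and from 12.2 to 400.1 without. Some window peaks above the median signal of all optimal peaks had no match. They were Chd8 peak 1, Maz peak 3, Top2b peaks 2 and 3, and Ctcf peak 2. The share without a match among all optimal peaks above that median was not counted. Whether such peaks are more common at these genes is therefore not known. The median GC content within 100 bp of the summit was 47.76% in matched peaks and 59.7% in the others, beside 49.25% and 53.73% over all optimal peaks, and its part in the difference was not tested.

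**Figure D3:**
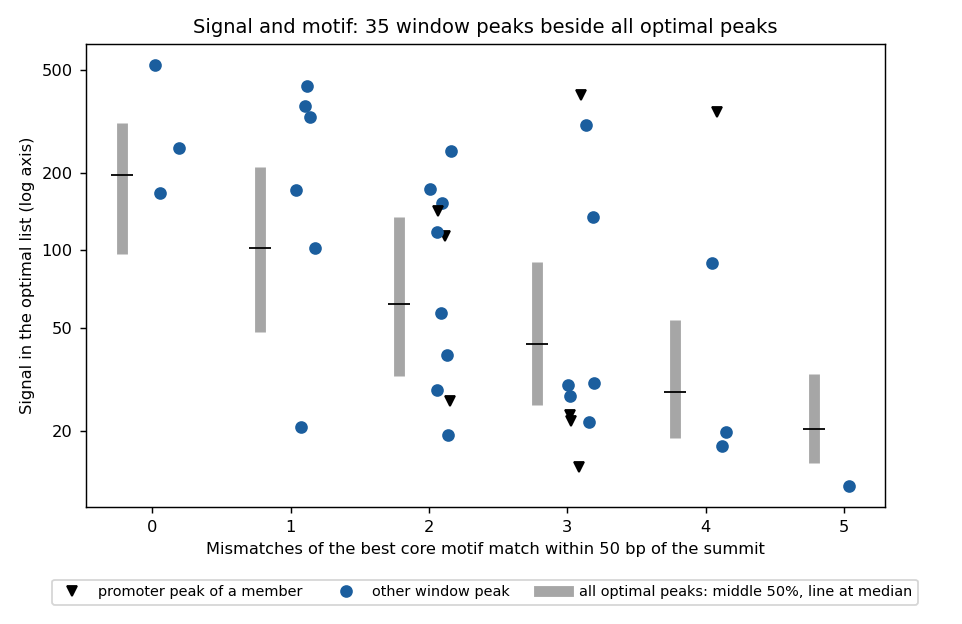
Each point is 1 of the 35 window peaks, by the mismatches of its best core motif and its signal in the optimal list (log axis), with the middle 50% and median of all optimal peaks as grey bars. The median of all optimal peaks falls from 195.1 at 0 mismatches to 43.41 at 3, and Chd8 peak 1, Maz peak 3 and Top2b peak 2 lie far above the bars of their own mismatch class.

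The longest run of letters shared by 7 or more of the matched sites was 12 bases long, and shorter runs were not listed. The 12 bases CCAGAAGAGGGC stood in 7 of the 20 matched sites, at Maz peak 5, Zfp143 peaks 1, 2 and 3, Ldb1 peak 4 and Chd8 peaks 3 and 4. All 7 lay on sequence that the reference genome marks as repeats. Some of them are printed to show how far the likeness extends beyond the motif.
Maz peak 5, chr7:127004689-127004718, minus strand: cctgcatgCCAGAAGAGGGCATcagatccc
Zfp143 peak 1, chr7:110047551-110047580, minus strand: gacataaaCCAGAAGAGGGCGTcagatgat
Zfp143 peak 2, chr7:110059304-110059333, minus strand: acagcatgCCAGAAGAGGGCATcagatcct
Zfp143 peak 3, chr7:110067939-110067968, plus strand: ttcatgcaCCAGAAGAGGGCATcagattcc
Ldb1 peak 4, chr19:46029144-46029173, plus strand: tcttggagCCAGAAGAGGGCGCcagaagct
Over all 50888 optimal peaks, with or without a match, the 12 bases lay within 50 bp of 5862 summits, or 11.52%. The share among matched sites alone was not counted, so 11.52% is not a like measure for the 7 of 20. In mouse, B2 short interspersed elements are known to have spread CTCF motifs, and the repeat family of these sites was not determined here.

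With Ldb1 peak 3, whose site differs from that run, 8 of the 20 matched sites lay on repeat-masked sequence, beside 27.1% of matched sites of all optimal peaks. Their median signal was 79.47, and that of the other 12 was 168.9, beside 56.35 and 112.4 over all optimal peaks. The repeat sites covered a wide range, from 19.2 at Zfp143 peak 3 to 329.5 at Chd8 peak 4. At Zfp143, 3 of the 4 matched sites were of this kind and were the weak ones, and the strong site of peak 4 was not masked.

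Motif directions were mixed. The motif lay on the strand of the gene in 8 of the 20 matched peaks and opposite in 12. Of the 12 neighbouring pairs of matched peaks in the windows, 4 were convergent, 5 divergent and 3 of the same direction, beside 23.1% convergent among all neighbouring matched pairs no farther apart than the longest member window of 110.3 kb. The convergent pairs lay at Ctcf, Zfp143, Ldb1 and Chd8, and that of Ctcf was the only one to enclose its whole gene.

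Most of the window peaks, but not all, had support in both replicates. Of the 35 window peaks, 23 had a summit among the 50909 strongest peaks of both replicates, beside 76.7% of all optimal peaks. These included all 19 window peaks above the median signal and 4 of the other 16. The optimal list was made from both replicates, and support is a cut on the signal in each. The split by signal was therefore largely fixed in advance and is not a result of its own. The same split was not counted over all optimal peaks. In the conservative list, the other deposited IDR list, 27 of the 35 were present, beside 86.4%. In the full replicate lists, 30 had a summit in both, beside 93.5%. The 5 without one were Ctcf peak 4, Yy1 peak 4, Maz peak 1 and Chd8 peaks 2 and 5, all with a signal at or below 21.7.

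**Figure D4:**
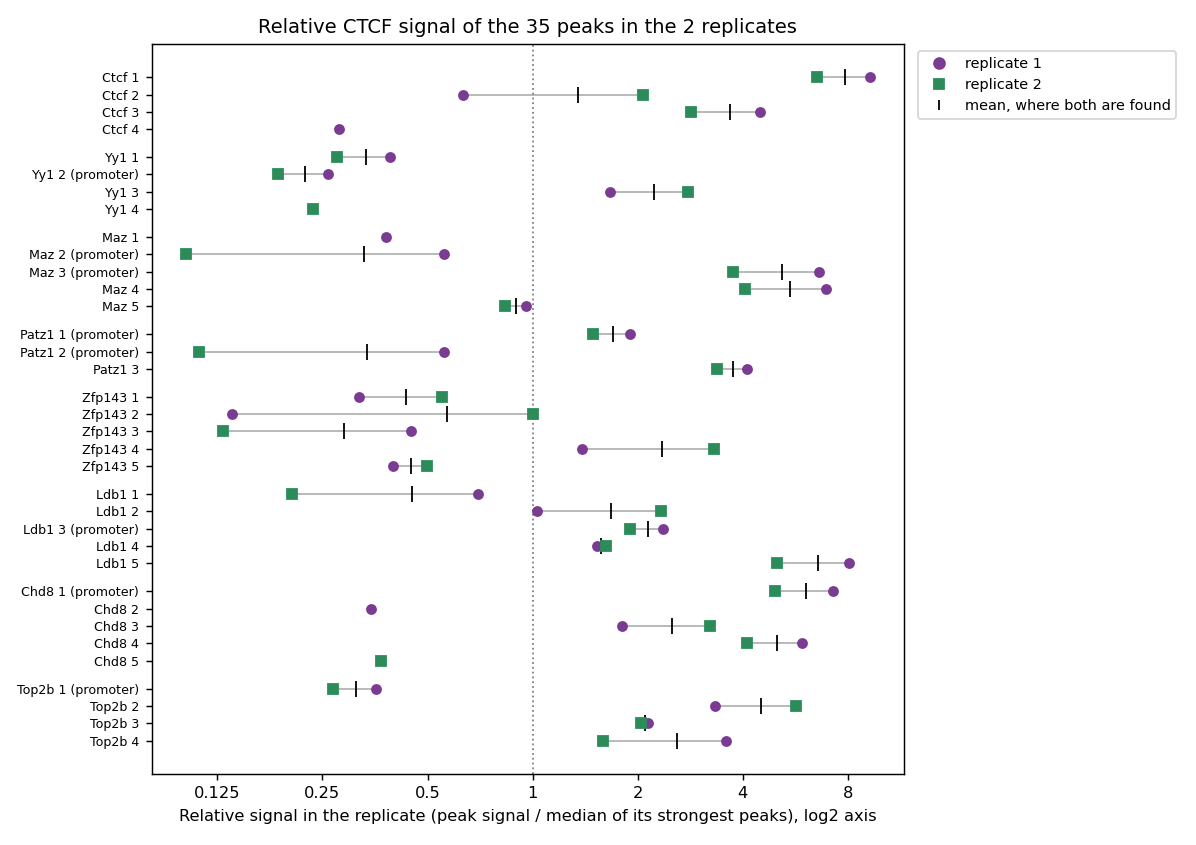
The relative signal of each of the 35 window peaks is plotted for replicate 1 (circles) and replicate 2 (squares) on a log2 axis, with a tick at the mean where both are present. The strongest peak of each of the 8 genes stays to the right of 1 in both replicates, while Zfp143 peak 2, at 0.138 and 1.00, and the weaker promoter peaks of Maz, at 0.557 and 0.102, and Patz1, at 0.558 and 0.111, spread widely.

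The direction of the difference between the replicates moved with base composition. Of the 30 peaks with a value in both, 20 were higher in replicate 1, with a median GC content of 56.22%, and 10 were higher in replicate 2, with 43.03% and a range of 33.83% to 49.75%. The 20 of 30 were near the 63.6% of all optimal peaks that were higher in replicate 1. All 8 promoter peaks were higher in replicate 1, beside 84.5% of promoter peaks of all protein-coding genes. Above 50% GC, 14 of 14 were higher in replicate 1, beside 90.4% of optimal peaks, and at or below 50%, 6 of 16 were, beside 35.2%. Across the 30 peaks, which share both libraries, the GC content and the log2 ratio of the replicates gave a rank correlation (Spearman's rho) of 0.755 and a linear one (Pearson's r) of 0.663, as a description. The part of base composition in the difference between the libraries was not tested.

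**Figure D5:**
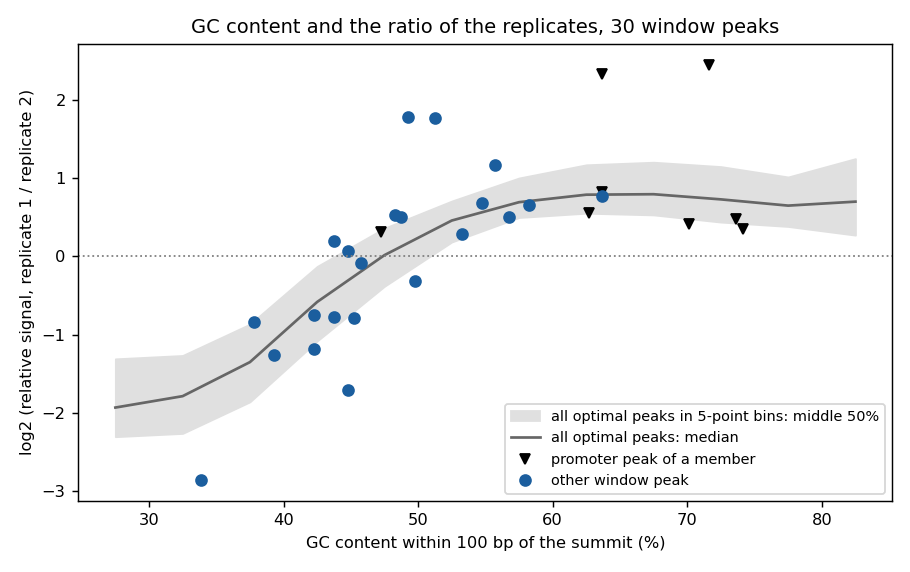
The log2 ratio of relative signal in replicate 1 to replicate 2 is plotted against the GC content (%) within 100 bp of the summit for 30 window peaks, with the median (line) and middle 50% (band) of all optimal peaks in bins of 5 points. The 8 promoter peaks (triangles) all lie above 0, and the lowest point is Zfp143 peak 2 at 33.83% GC.

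Other genes of the same machinery were counted for promoter peaks in the same way, from 4 lists. Of 14 genes of cohesin and its regulators, 9 had one. The strongest were those of Esco1, a cohesin acetyltransferase, at 5.56 ± 1.03 in relative signal (SD, n = 2), and Stag1, a cohesin subunit, at 4.99 ± 0.812 (SD, n = 2). Among 7 relatives of the members, 5 had one, with Chd9, a remodeller of the CHD8 family, at 7.05 ± 1.12 (SD, n = 2) and Chd7 at 0.763 ± 0.379 (SD, n = 2). Of 10 other proteins reported with CTCF, 7 had one, led by the nucleolar transcription factor gene Ubtf at 7.64 ± 1.82 (SD, n = 2) and Adnp at 4.97 ± 1.26 (SD, n = 2).

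Of 8 genes of the red cell LDB1 complex, 5 had a promoter peak. Ssbp4, which encodes an LDB1 stabiliser, had 4.19 ± 1.39 (SD, n = 2), and Lmo2, which encodes the LIM protein that bridges LDB1 to DNA-binding partners, had 3.40 ± 1.38 (SD, n = 2). The median strongest signal was 234.8 in the cohesin list, 35.71 among the relatives, 111.7 among the other reported proteins and 105.5 in the LDB1 list, beside 128.0 for the 6 members. The counts of all 4 lists were read against the same 35.2%, and the lists were not tested.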

How the data were processed

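CTCF ChIP-seq peaks of 2 libraries of 1 group were used. Per the file headers, the authors deposited narrowPeak lists on mm10: 1 for each replicate, 1 pooled, and 2 thresholded by IDR, named optimal and conservative. The deposited signal of a peak (column 7) has no stated scale and was kept as written by the caller. Neither that program nor a read count is given in the sources used here, and the control and the signal tracks were not analysed here. The 21 optimal peaks on unplaced scaffolds were left out.

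Summits were placed on the reference genome and GENCODE vM21 with Python 3.11.15, pandas 2.3.3, numpy 2.4.6 and pysam 0.24.0, and figures were drawn with matplotlib 3.10.9. A promoter peak was a summit within 1 kb of any transcript start. Replicate support meant a summit within 100 bp among the replicate's 50909 strongest peaks. The motif and placement code was tested on simulated data. Repeats were read from the lower-case letters of the reference genome. With 1 group, no test was made.

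The text names all 8 members with every optimal peak of their windows, the 2 genes with the strongest promoter peak in each related list, genes with a start within 1 kb of a member's peak, and genes that hold a peak. Zfp76, of the list of relatives, was not found by name in the annotation and is not counted. The members, motifs and lists were chosen with earlier results of these data known. Counts were repeated on the conservative list, on optimal peaks of above-median signal and on either replicate alone, and with other promoter windows, 1 start per gene, other flanks, other motif settings and other replicate settings.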

Additional observations from a re-analysis of the deposited data

Results flagged for a closer look

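The conservative list held 5 peaks in the 8 windows with no optimal peak within 100 bp, a signal in a list that the counts above do not use. At Ctcf, 2 such peaks lay beyond the 3′ end, with signals of 22.7 and 24.7 and relative signals of 0.346 and 0.307, and of 0.469 and 0.197, in replicates 1 and 2. At Zfp143, 1 lay 416 bp from a transcript start, with a signal of 18.2 and relative signals of 0.328 and 0.179. At Chd8, 2 lay inside the gene, with signals of 24.7 and 23.0, the second 562 bp from an internal start, and relative signals between 0.291 and 0.356. All 5 were below 1 in both replicates, and 1 of them, at Chd8, had a core motif match.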

How the results depend on the processing

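Read depth is unknown, so weak peaks could not be separated from missing ones. The 8 genes kept a window peak count of 35 to within 1.5 times under 4 of 6 alternatives. It was 19 with peaks above the median signal and 66 with flanks of 50 kb, 31 without replicate 1 and 48 without replicate 2. The 6 genes with a promoter peak became 4 with peaks above the median signal (Maz, Patz1, Ldb1, Chd8), 4 within 500 bp (Yy1, Maz, Patz1, Chd8) and 4 with 1 start per gene (Yy1, Maz, Chd8, Top2b). They became 7 with the conservative list or within 5 kb, which add Zfp143, 5 without replicate 1, which loses Yy1, and 7 without replicate 2, which adds Ctcf and Zfp143 and loses Yy1. With 1 start per gene, 6067 of 21938 protein-coding genes had a promoter peak. That count was 3941 with peaks above the median signal, 6305 within 500 bp and 11861 within 5 kb. It was 7542 with the conservative list, 6960 without replicate 1 and 8647 without replicate 2, beside 7727 in the main count.

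The 3 of 8 promoter peaks with a motif match became 0 at 1 mismatch and 7 at up to 3. They were 1 of 6 promoter peaks without replicate 1 and 4 of 16 without replicate 2. With either replicate left out, the share of all promoter peaks with a match was not counted. Support in both replicates ranged from 18 to 30 peaks around 23. Of 32 window counts of single genes under 4 alternatives, 24 stayed within 1.5 times. Among the other 8, Maz had 3 peaks without replicate 1 and 9 without replicate 2, and Ctcf had 7 without replicate 2. Where values moved, the cause was not tested. No paired analysis was possible because the series has 1 group.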
